A study of Mus musculus with 13 samples.

Results

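The 9 genes described here encode the insulin receptor, proteins that carry its signal in the liver, and subunits that link it to glycogen: Insr, Irs1, Irs2, Pik3r1, Akt2, Foxo1, Foxo3, Ppp1r3b and Ppp1r3c. They were taken by symbol from the deposited liver table, which lists 11779 genes. A gene that it did not list would have been left out, so that all 9 are listed was fixed in advance. RNA was sequenced from livers of Balb/c mice on day 5 after injection of GalNAc-conjugated antisense oligonucleotides (ASOs). In one group, 3 mice received a mix of ASOs against the lncRNA LL35. In the other, 3 mice received a control ASO against firefly luciferase (Luc). The paper's text gives 5 ASOs in the LL35 mix, while its supplementary list of ASOs for mice names fewer against LL35. The LL35 dose was 150 mg/kg, which the labels state for each ASO and the methods for the whole mix. The GalNAc sugar takes the ASOs to hepatocytes, while RNA came from liver tissue with all its cell types. The age and sex of the mice and the dose of the Luc ASO are not given in the sources used here. AML12 hepatocyte libraries belong to the same study and were not analysed here.

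The liver table has no values for single mice. It gives for each gene a mean normalized count, which is the authors' mean over the compared libraries, together with columns of the authors' own comparison of the groups that were not used here. The labels tie the table to the 6 LL35 and Luc livers, but the file does not name the libraries behind its mean, which was taken here to cover both groups. The values below are therefore pooled levels with no error, no replicate spread and no test. They do not show whether any of the 9 genes differed between the LL35 and Luc livers. The number of reads from each mouse is also unknown, and with it the depth and precision of each level. LL35 itself (9030622O22Rik) is not among the genes analysed here, so the knockdown was not checked.

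Insulin binds its receptor at the hepatocyte surface, and the receptor phosphorylates the IRS adaptor proteins on tyrosine. These recruit PI3-kinase through its regulatory subunit, and the lipid that it makes activates AKT. In the liver, AKT keeps FOXO transcription factors out of the nucleus, which lowers the transcription of gluconeogenic genes, and it favours glycogen storage. Glycogen-targeting subunits bring protein phosphatase 1 (PP1) to glycogen, where it activates glycogen synthase.

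The deposited levels run from 15.6 to 1217472 with a median of 235. The middle of the range, between the quartiles, spans 82.0 to 625. No gene below 15.6 is listed, so medians, ranks and percentiles here hold among the listed genes and not among all annotated genes. All 9 genes lay above the median, and 8 of the 9 lay above the upper quartile, Ppp1r3c being the exception. Insr had the highest mean normalized count, 4031, and Ppp1r3b followed with 4009. Pik3r1 stood at 2338. Together these 3 genes made up 63.2% of the summed level of the 9. The FOXO genes came next, Foxo1 with a mean normalized count of 1386 and Foxo3 with 1338. The adaptor genes lay close to each other, Irs2 at 1092 and Irs1 at 1070. Akt2 had a mean normalized count of 831 and Ppp1r3c of 317. The highest level was 12.7 times the lowest. With no spread between mice, neighbours in this order cannot be ordered with confidence.

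A long transcript gives more reads than a short one of the same abundance, so genes were compared with each other per kb of exon, using the union of exons in GENCODE release M21. This length ranged from 2725 bases for Ppp1r3c to 13746 for Insr. On this scale Ppp1r3b was first, at 645 normalized counts per kb, and Insr second, at 293. Pik3r1 came next with 232 normalized counts per kb. Foxo3, Irs2 and Foxo1 followed within a narrow range, at 177, 173 and 160.0 normalized counts per kb. Irs1, Akt2 and Ppp1r3c closed the order at 117, 116.5 and 116.2 normalized counts per kb. From first to last the levels per kb of exon spanned 5.55 times, and Ppp1r3c, whose exons are the shortest, lay beside Akt2 and Irs1. This order depends on the length that is used. Per kb of the longest transcript the span was 7.87 times and Akt2 was 1.57 times Ppp1r3c. Per kb of coding sequence the span was 17.1 times, Akt2 was 1.73 times Ppp1r3c, Insr moved to place 3 and Irs2 to place 9. Ppp1r3b was first and Insr and Pik3r1 filled the next places on each of these 3 scales. All 9 lay above the median of the listed genes, 51.5 normalized counts per kb, and 6 lay above the upper quartile of 128.

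**Figure D1:**
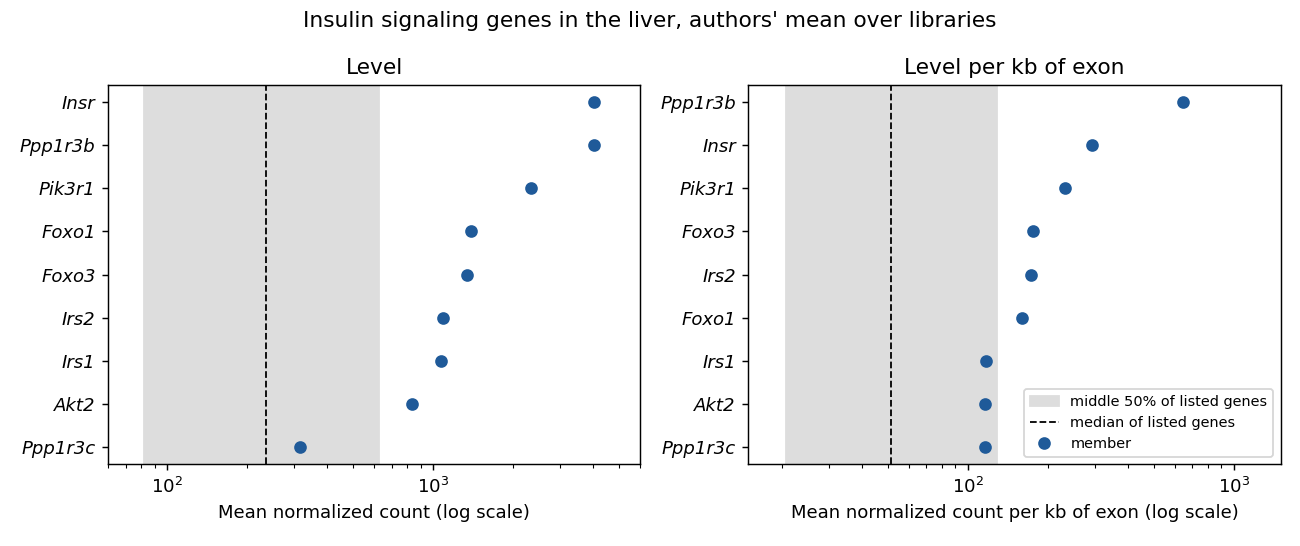
Each point is one gene, with the authors' mean normalized count on the left and the same level per kb of exon on the right, both on log axes. The grey band spans the quartiles of all listed genes and the dashed line their median (235 and 51.5). All 9 points lie to the right of the median, and on the left Ppp1r3c alone lies inside the band.

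The receptor gene Insr stood well above its relative. Igf1r encodes the receptor for insulin-like growth factor 1 and had a mean normalized count of 190 against 4031 for Insr, or 11.3 against 293 normalized counts per kb. Insr was thus 25.9 times as high per kb. The level of Insr ranked 348 among the 11779 listed genes, and 97.0% of them were lower. Per kb it was lower in the order, with 88.5% of genes below it. Its coding sequence makes up 29.9% of its exon bases over 5 annotated transcripts.

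The adaptor proteins IRS1 and IRS2 recruit PI3-kinase. Their genes had nearly the same mean normalized count, with a ratio of 1.02 for Irs2 over Irs1. Per kb of exon the ratio was 1.48, since the exons of Irs1 cover 9144 bases and those of Irs2 cover 6323. Per kb of coding sequence Irs2 was 0.951 times Irs1. No order can therefore be given for this pair. Both genes lay below their receptor on the exon scale, Insr being 2.51 times Irs1 and 1.70 times Irs2 per kb. Irs3 and Irs4 are not among the genes analysed here. Among other adaptors of the pathway, Grb2 had 194 and Sh2b1 had 150.0 normalized counts per kb, while by mean normalized count Shc1, at 636, was above both Sh2b1, at 590, and Grb2, at 565. Per kb, Shc1 stood at 113, Grb14 at 69.1 and Grb10 at 11.6 normalized counts per kb. Grb14 and Grb10 encode adaptors that inhibit the receptor.

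Pik3r1 encodes the regulatory subunits of PI3-kinase that bind phosphorylated IRS proteins. Its mean normalized count of 2338 was higher than that of the other PI3-kinase genes measured. Pik3r2, the related regulatory gene, had a mean normalized count of 232, and Pik3r1 was 4.18 times as high per kb. Among the catalytic subunits, Pik3ca was at 96.9, Pik3cb at 56.0 and Pik3cd at 15.1 normalized counts per kb, against 232 for Pik3r1. Pik3cd is best known from leukocytes.

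Akt2 is the AKT gene most tied to insulin action on glucose in the liver. Its mean normalized count of 831 was 1.35 times that of Akt1, at 617. Per kb of exon the order turned, with 116.5 for Akt2 and 151 for Akt1, a ratio of 0.774. The longest transcript gave 0.797 and the coding sequence 1.34. Akt2 has 14 annotated transcripts, and its exon union of 7131 bases counts every one of them, whether or not the liver uses it. Gsk3b, a kinase that AKT inhibits and that inhibits glycogen synthase, stood at 137 normalized counts per kb of exon, and Gsk3a at 157. By mean normalized count this order turned too, with 1351 for Gsk3b and 454 for Gsk3a.

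The FOXO factors Foxo1 and Foxo3 lay within 1.5 times of each other on each scale. Foxo1 was 1.04 times Foxo3 by mean normalized count, 0.905 times per kb of exon and 1.07 times per kb of coding sequence. Foxo4, another FOXO gene, was lower, at 99.1 normalized counts per kb against 160.0 for Foxo1 and 177 for Foxo3. Foxo6 is not among the genes analysed here.

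The glycogen-targeting subunits differed more in level than the IRS or FOXO pair. Ppp1r3b encodes the subunit known as GL, the main form in liver, and Ppp1r3c encodes the one known as PTG. Their mean normalized counts were 4009 and 317, a ratio of 12.7. Per kb of exon the ratio was 5.55, per kb of the longest transcript 7.87 and per kb of coding sequence 14.1. Ppp1r3b was the higher gene on each of these scales. Its coding sequence makes up 13.7% of its exon bases, the lowest share of the 9 genes. Ppp1r3g, another subunit of this kind, had 48.4 normalized counts per kb, and Ppp1r3a, Ppp1r3d, Ppp1r3e and Ppp1r3f are not among the genes analysed here. The catalytic PP1 genes Ppp1ca, Ppp1cb and Ppp1cc stood at 320, 172 and 69.9 normalized counts per kb of exon. By mean normalized count Ppp1cb, at 1872, was above Ppp1ca, at 805, and Ppp1cc stood at 239. The order of Ppp1ca and Ppp1cb thus turned with the length used. Gys2, the liver glycogen synthase that PP1 activates, had 1069 normalized counts per kb of exon, which was 67.5 times the level of Gys1, the muscle form. Their ratio was smaller by mean normalized count, at 2841 against 75.9, and per kb of coding sequence, at 1345 against 34.3. Pygl, the liver glycogen phosphorylase, had 331 normalized counts per kb of exon.

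**Figure D2:**
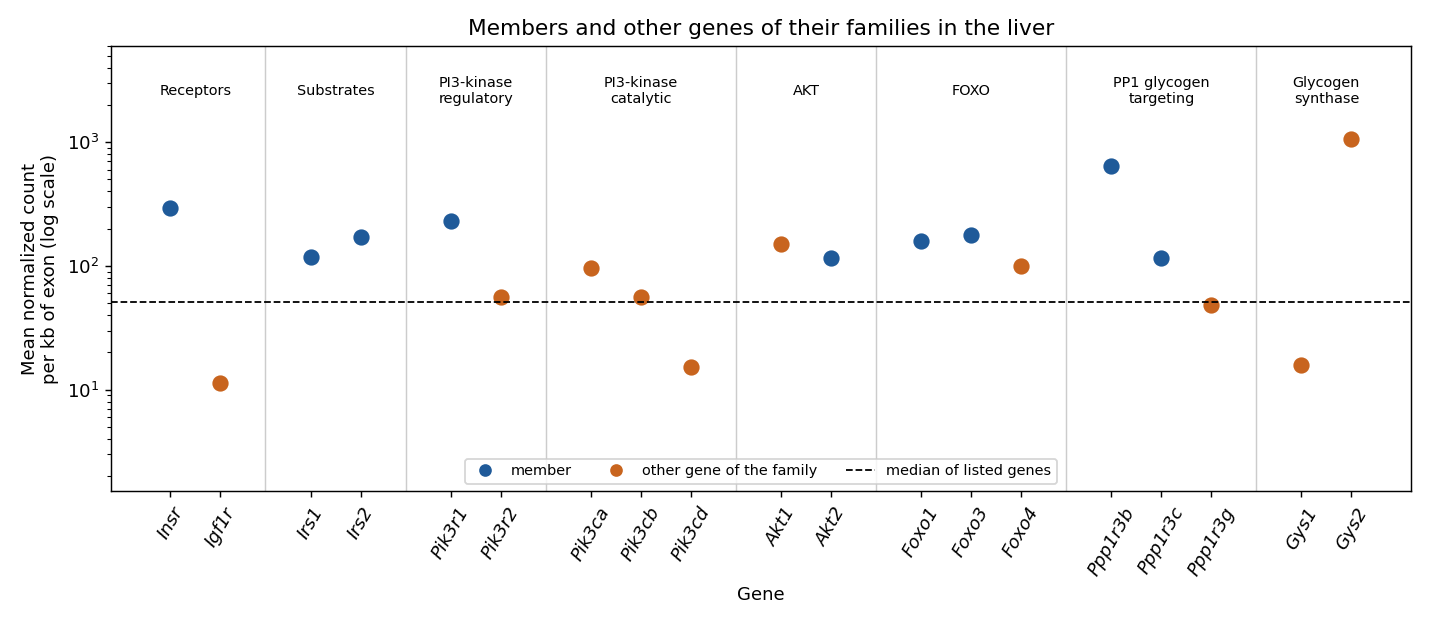
Level per kb of exon, on a log axis, for the 9 genes (blue) and for other genes of their families and of neighbouring steps (orange), with the median of all listed genes as a dashed line at 51.5. Insr, Pik3r1, Ppp1r3b and Gys2 stand clear of their relatives, while Irs1 and Irs2, Akt1 and Akt2, and Foxo1 and Foxo3 lie close together.

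Of 6 family pairs compared, 3 kept their order under all 4 treatments of length: Insr over Igf1r, Pik3r1 over Pik3r2 and Ppp1r3b over Ppp1r3c. The order of the other 3 pairs, Irs2 and Irs1, Foxo1 and Foxo3, and Akt2 and Akt1, turned with the length that was used, and these 3 were within 1.5 times of each other per kb of exon.

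**Figure D3:**
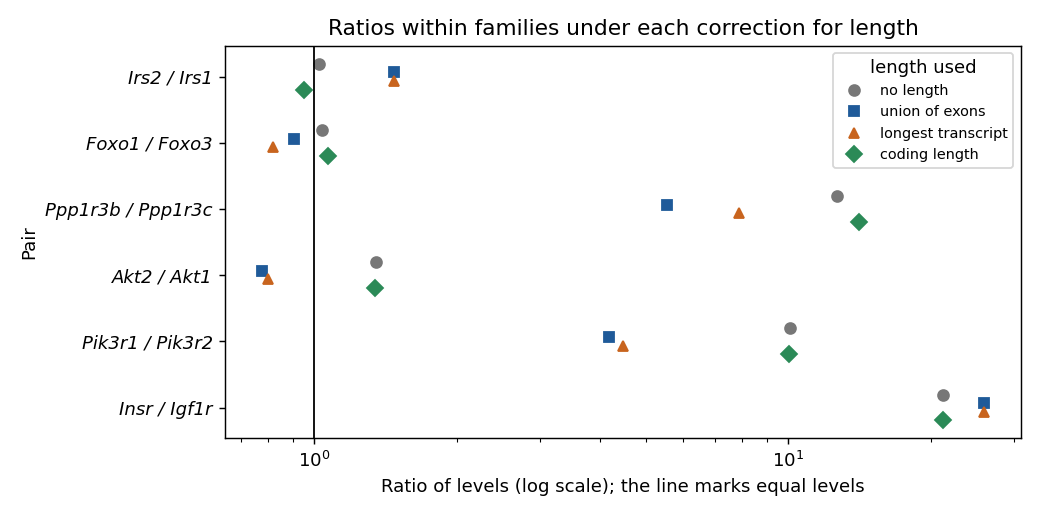
Ratio of levels for 6 pairs of genes on a log axis, with one symbol for each treatment of gene length and a vertical line at equal levels. Symbols of the Insr, Pik3r1 and Ppp1r3b pairs all lie to the right of the line, and those of the Irs, FOXO and AKT pairs fall on both sides of it.

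Over 7 lists of pathway genes, 49 genes were listed, the 9 among them included. The median of the 9 was 173 normalized counts per kb, against 70.04 for the other 40 and 51.5 for all listed genes. Of these 40, 28 had a mean normalized count above the median of the table. No test was made of this difference, since the 9 genes were picked as known parts of liver insulin signaling. They were also picked with earlier results of these data known.

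The exons of 3 of the genes overlap a gene on the opposite strand in GENCODE release M21. The overlap is 2822 bases for Irs1 with Gm9747, 674 bases for Foxo1 with Gm20402 and 162 bases for Irs2 with 9530052E02Rik. The libraries were made with a kit that keeps strand, but whether the counting used it is not given in the sources used here. Whether the overlaps added reads to these levels or removed reads from them was not tested. The other 6 genes had no exon in common with another gene.

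The tissue label was checked against markers of hepatocytes, and all 8 were listed, with mean normalized counts from 3329 for Asgr1 to 1217472 for Alb. Other liver cells were present too. The 6 Kupffer cell markers had mean normalized counts from 120.3 to 1954, the 5 endothelial markers from 121 to 2171 and the 4 stellate cell markers from 51.8 to 1823. Among 4 cholangiocyte markers Sox9 alone was listed, at 41.1. Among 6 markers of T, NK and B cells Cd3e alone was listed, at 18.6. The 2 neutrophil markers S100a8 and S100a9 were at 23.0 and 18.8. Of 2 adipocyte markers Plin1 was listed, at 21.3, and none of the 3 skeletal muscle and 2 pancreatic beta cell markers was listed. The lowest listed level of any gene was 15.6, so a marker that was not listed was not shown to be absent. Which cells contributed the reads of the 9 genes was not tested, and in such bulk tissue more cells of a type and more RNA per cell cannot be told apart.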

How the data were processed

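RNA of 6 mouse livers was sequenced by the authors, who, per the labels and methods, aligned reads with STAR 2.5.3a, counted them on Ensembl genes and normalized them with DESeq2 by the RLE method. The genome build is not given in the sources used here, so no positions are given. The level used here is the mean normalized count of the deposited table, a signal that the authors averaged over the compared libraries, without correction for gene length. The 5 other value columns of the authors hold their log2 fold change, its standard error, the statistic, and the p-value and adjusted p-value, and were not used. No test between groups was made, because the table has no values for single mice.

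Ensembl identifiers were matched to GENCODE release M21 (GRCm38) for 11754 genes (99.8%), and levels were divided by the union of exons. The alternatives were coding length, the longest transcript, no length, genes with a mean of at least 50, and protein-coding genes by GENCODE type. The genes described were the 9 members and, from lists of related genes, the relatives of members. The 9 members and the lists were chosen with earlier results of these data known. The planned comparison of protein sequences was not made, as protein sequences were not used here. Some related genes are not reported here. The exon union and the percentile were tested on simulated data with known lengths and quantiles. The division by length and the ratios were not tested in this way. Software was Python 3.11.15, pandas 2.3.3, numpy 2.4.6 and, for plots, matplotlib 3.10.9. Depth and its precision are unknown.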

Additional observations from a re-analysis of the deposited data

How the results depend on the processing

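All 9 genes lay above the median level among all listed genes, among genes whose level was 50 or more, among protein-coding genes and per kb of exon, although Ppp1r3c did so narrowly in the second of these, at percentile 50.2 against 58.0 in the first. Of 6 pairs, the first-named gene was higher in 4 per kb of exon, in 4 per kb of the longest transcript, in 5 per kb of coding sequence and in 6 without a length. With coding length, Irs2 over Irs1 changed from 1.48 to 0.951, Foxo1 over Foxo3 from 0.905 to 1.07 and Akt2 over Akt1 from 0.774 to 1.34. Without a length, Foxo1 over Foxo3 was 1.04 and Akt2 over Akt1 was 1.35. Pik3r1 over Pik3r2 was 4.18 per kb of exon, 10.06 per kb of coding sequence and 10.09 without a length. No value could be recomputed without one of the mice, since the table gives one mean for each gene. No paired analysis was made, since the groups were separate mice and the sources used here name no pairs.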
